A study of Homo sapiens with 4 samples.

Results

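RAB GTPases are the largest branch of the RAS superfamily and were followed here in TPC1 cells between 6 h and 24 h of RET inhibition. The members were the protein-coding genes of the deposited table whose symbol is RAB followed by a number, with or without a letter and a further number. There were 61 such genes among the 20372 genes of the table, and 52 of them had enough reads to be tested. The rule reads symbols only.

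TPC1 cells, an established line of human papillary thyroid carcinoma, carry the CCDC6-RET fusion, and BLU6864 is a selective RET inhibitor. Cells grown in DMEM with 10% FBS were given BLU6864 for 6 h or for 24 h, with 2 libraries of total RNA at each time (BLU6H replicates 1 and 2, BLU24H replicates 1 and 2). The dose reads 100 µM in the sample labels but 100 nM in the methods of the study, and the titles of the 24 h libraries carry the word re-analysis. That word is on both 24 h libraries and on neither 6 h library, so any difference in origin or handling it stands for cannot be told apart from time. All 4 libraries received the drug, and vehicle libraries were not analysed here, so that time in culture and time on the drug cannot be told apart. Nothing states that the 2 libraries of a time came from separate cultures, and p-values then measure only the spread between these libraries, which may be technical.

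A RAB protein is a molecular switch that cycles between a GDP-bound form in the cytosol and a GTP-bound form on one membrane. Exchange factors load GTP, GTPase-activating proteins end the active state, GDP dissociation inhibitors carry the prenylated protein through the cytosol, and effectors read the active form to tether, move or fuse vesicles. Each RAB marks its own stretch of the route from the endoplasmic reticulum (ER) through the Golgi to the surface, the endosomes and the lysosome. Thyroid cells use these routes to secrete thyroglobulin and to take it up again for hormone release.

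Total counts lay between 23917056 and 27457040 per library. The Spearman correlation over the genes tested was 0.998 within each time and at most 0.941 between times, and the 2 libraries of a time differed by more than sampling noise (a chi-square of 7.87 per degree of freedom for the 24 h pair and 10.3 for the 6 h pair). Of 8 thyroid follicular markers, 4 had more than 3 counts in every library, led by PAX8 with 19124 to 22978 counts, whereas TSHR and NKX2-1 had 0 counts in all 4. Of 5 epithelial markers, KRT8 had 1720 to 1811 counts, while CDH1 reached at most 8 and EPCAM at most 11. None (0) of 4 white blood cell markers exceeded 3 counts in every library, and the highest count among them was 5. The RNA of bulk cultures was measured, in which fewer cells of a kind and less RNA per cell cannot be told apart.

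The 61 genes together took a nearly constant part of the transcriptome. Of all counts they held 0.454% and 0.440% at 6 h, against 0.441% and 0.430% at 24 h, so the ranges of the 2 times overlapped. The methods of the study took genes lower by more than 0.5 on the log2 scale with P under 0.01 in DESeq2. Here the same cutoffs were applied in both directions and to edgeR's quasi-likelihood test. A gene was called with a log2 fold change (24 h over 6 h) beyond 0.5 in either direction and an unadjusted P under 0.01. The verbs rose and fell are used only for such genes. By this rule 8 RAB genes rose and 5 fell, which is 25.0% of the 52 tested, against 35.1% of all genes tested (17.4% higher and 17.7% lower). The largest P adjusted over all genes tested among these 13 was 0.00252. The rising genes were RAB40A, RAB27B, RAB40B, RAB42, RAB9B, RAB20, RAB32 and RAB36, and the falling ones RAB31, RAB23, RAB2B, RAB4B and RAB28. Over all 52 genes, both 24 h libraries lay above both 6 h libraries in 22 and below them in 19, and the times overlapped in 11, while they did not overlap in 81.8% of all genes tested.

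With no cutoff on size and an adjusted P under 0.05, 17 RAB genes were higher and 11 lower, against 33.0% higher and 32.6% lower among all genes. This is 53.8% of the RAB genes tested, under the 65.6% of all genes. The median log2 fold change was 0.03 over the RAB genes and 0.0029 over all genes tested. The median size of a change, regardless of sign, was 0.23 for the RAB genes and 0.37 for all genes.

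**Figure D1:**
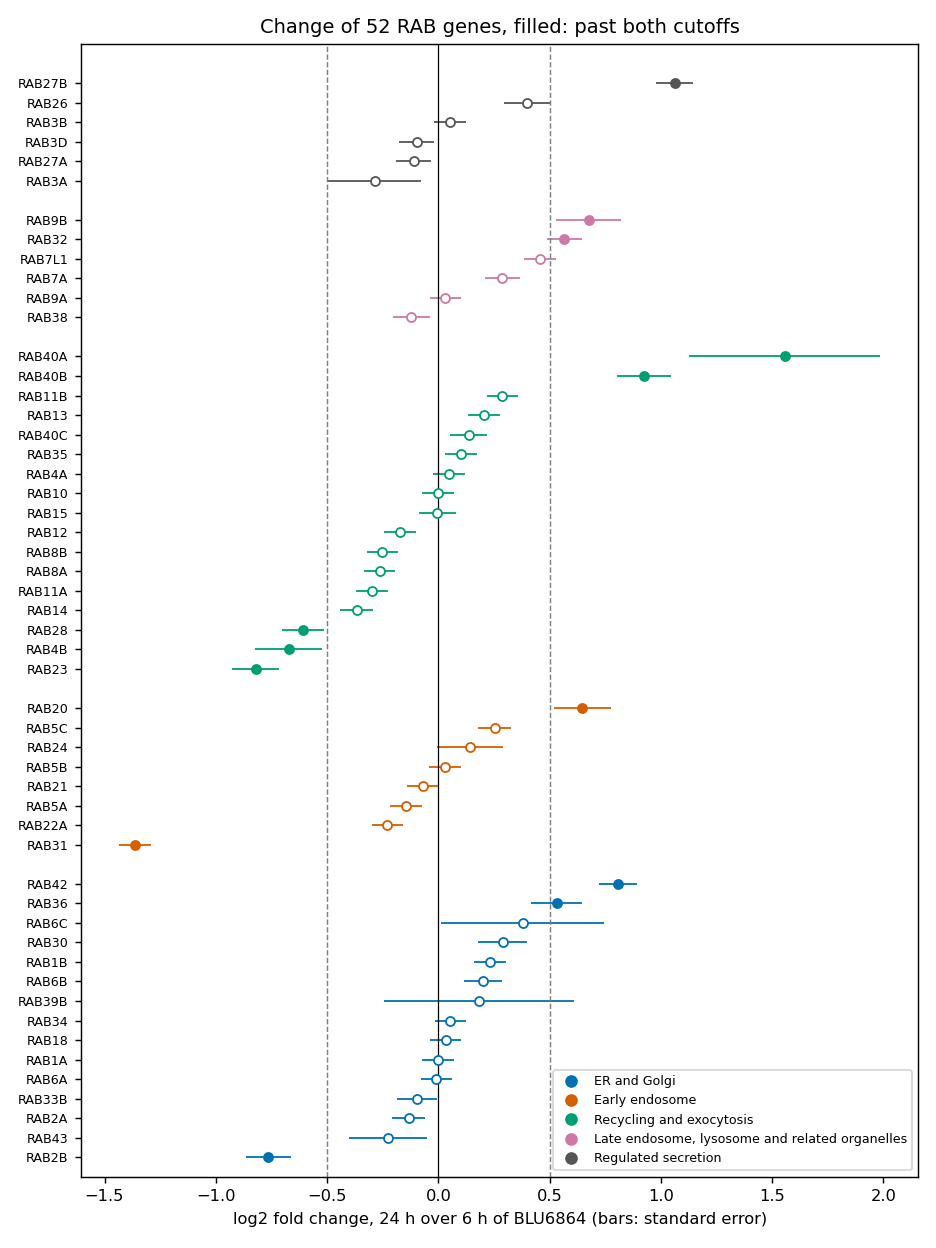
Log2 fold change of the 52 RAB genes tested, 24 h over 6 h of BLU6864, grouped by the membrane route assigned to them here, with bars for the standard error and dashed lines at the cutoff of 0.5. Filled points mark the 13 genes past both cutoffs, with RAB31 lowest at -1.36 and RAB40A highest at 1.56.

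The genes past both cutoffs were mostly not the abundant ones. Of the 29 RAB genes with a mean normalized count of at least 1000 over the 4 libraries, 2 were called, RAB31 and RAB32, or 6.90%. Among all genes at that abundance 29.7% were called. Of the 23 RAB genes under 1000, 11 were called, or 47.8%, against 39.2% of all genes in that range. With an adjusted P under 0.05 and no size cutoff, 48.3% of the abundant RAB genes differed, against 70.7% of all genes at that abundance. Under 1000 these shares were 60.9% and 61.7%, close to each other. The bound of 1000 was chosen after the values were seen. Among the abundant members with the smallest differences were RAB1A, which directs ER to Golgi transport, and RAB10, which acts in exocytosis. RAB1A had normalized counts of 6666 and 6384 at 24 h and 6696 and 6360 at 6 h, and RAB10 had 5244 and 5085 at 24 h and 5311 and 5024 at 6 h. The libraries of the 2 times overlapped in both genes, and 13 of the 52 genes had a log2 fold change smaller than 0.1 in either direction.

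**Figure D2:**
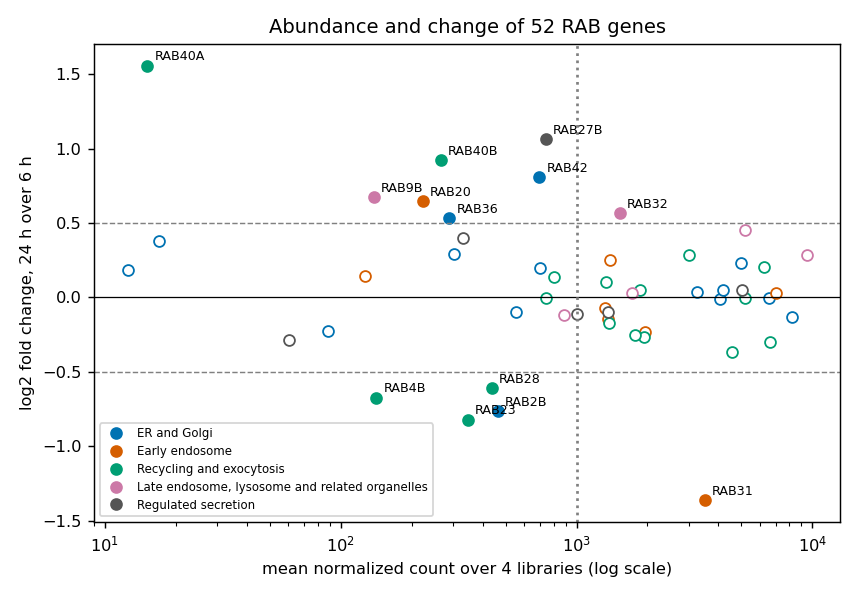
Mean normalized count over the 4 libraries (x axis, log scale) and log2 fold change, 24 h over 6 h (y axis), of the 52 RAB genes tested, coloured by route. Filled, named points passed both cutoffs, dashed lines mark 0.5 in either direction, the dotted line marks a mean of 1000, and only RAB31 and RAB32 are both filled and right of it.

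The upstream sequences of the gene that fell most, RAB31, of RAB27B, which had the highest log2 fold change after the sparsely counted RAB40A, and of its paralog RAB27A, which did not pass the cutoffs, are printed below. How alike they are was not tested, nor which start the cells use. Each is the 250 bases before an annotated start in RefSeq (GRCh38.p14), 5′ to 3′ on the strand of the gene, and RAB27B has 2 such starts. RAB27A has 5, of which the one with a match is printed and the other 4 hold none of the motifs. Capitals mark matches to 4 motifs searched on both strands, namely the AP-1 motif TGACTCA, the cyclic AMP response element TGACGTCA, the E-box CACGTG and the ETS motif CCGGAAG.
RAB31, chr18:9708051-9708300, plus strand: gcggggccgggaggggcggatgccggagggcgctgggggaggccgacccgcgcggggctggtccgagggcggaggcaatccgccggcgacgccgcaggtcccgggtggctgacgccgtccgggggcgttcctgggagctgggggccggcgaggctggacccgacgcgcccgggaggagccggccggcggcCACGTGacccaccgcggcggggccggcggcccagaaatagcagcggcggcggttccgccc
RAB27B, first start, chr18:54717607-54717856, plus strand: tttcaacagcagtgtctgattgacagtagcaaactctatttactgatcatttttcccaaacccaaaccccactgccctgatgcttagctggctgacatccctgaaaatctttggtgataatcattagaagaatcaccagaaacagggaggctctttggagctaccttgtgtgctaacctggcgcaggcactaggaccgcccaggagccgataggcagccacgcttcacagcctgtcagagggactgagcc
RAB27B, second start, chr18:54828227-54828476, plus strand: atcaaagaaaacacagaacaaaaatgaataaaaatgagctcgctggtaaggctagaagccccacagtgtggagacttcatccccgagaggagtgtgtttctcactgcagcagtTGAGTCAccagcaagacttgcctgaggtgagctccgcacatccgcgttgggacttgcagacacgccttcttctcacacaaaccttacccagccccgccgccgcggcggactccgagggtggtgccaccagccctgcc
RAB27A, chr15:55319124-55319373, minus strand: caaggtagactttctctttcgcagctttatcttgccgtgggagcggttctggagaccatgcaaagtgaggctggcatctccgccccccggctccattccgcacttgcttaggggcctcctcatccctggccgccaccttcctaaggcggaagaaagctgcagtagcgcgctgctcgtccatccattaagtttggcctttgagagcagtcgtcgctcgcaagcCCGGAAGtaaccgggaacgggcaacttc

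The RAB31 stretch holds an E-box, the second RAB27B start an AP-1 motif read on the opposite strand, and the RAB27A start an ETS motif. The first RAB27B start holds none of the 4. RefSeq promoters were found for 48 of the 61 genes, with 68 starts. An AP-1 motif lay in 7.35% of these and in 4.20% of all 35116 promoters of that length, an E-box in 7.35% and 6.34%, an ETS motif in 10.3% and 8.52%, and a cyclic AMP response element in 1.47% and 1.65%. A match is a stretch of letters and was not tested as a binding site.

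RAB31, which serves transport between the trans-Golgi and endosomes, moved furthest among the early endosome genes. RAB31 (ENSG00000168461, chr18:9708162-9862548 of hg19) had normalized counts of 5189 and 4883 at 6 h and of 1973 and 1941 at 24 h. Both 24 h libraries lay far below both 6 h libraries. Its level fell 2.57-fold, from 5036 ± 216 (SD, n = 2) to 1957 ± 22.1, a log2 fold change of -1.36 (standard error 0.0723, adjusted P = 3.85e-15). Fits that each lacked 1 library gave -1.41 to -1.32.

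RAB20, found on endosomes and phagosomes, moved the other way. It had 191 and 157 normalized counts at 6 h and 281 and 263 at 24 h, with no overlap between the times. The log2 fold change came to 0.65 (standard error 0.127, adjusted P = 7.29e-05). The 3 RAB5 genes, which control fusion of early endosomes, had unlike values. RAB5C was higher by a log2 fold change of 0.25 (adjusted P = 0.00457), under the size cutoff, while the log2 fold change was -0.14 for RAB5A and 0.03 for RAB5B, and neither had an adjusted P under 0.05. The value of RAB5B, the most abundant gene of the group, was negative with scaling by library size alone. RAB22A, of early and recycling endosomes, was lower by 0.23 on the log2 scale (adjusted P = 0.00516). Summed over the 9 genes placed in the early endosome group, normalized counts were 18908 and 17908 at 6 h and 15266 and 15347 at 24 h. The group includes RAB24, described below as a RAB of autophagy. The means of RAB31 alone, 5036 and 1957, were about as far apart as these sums.

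Of 6 genes of the late endosome, the lysosome and related organelles, 2 rose and 0 fell, while an adjusted P under 0.05 alone gave 4 higher and 0 lower. These shares, 33.3% and 66.7%, were near the 35.1% and 65.6% of all genes. Their median log2 fold change was 0.37. RAB32, which directs cargo to melanosomes and other lysosome-related organelles, had 1133 and 1320 normalized counts at 6 h and 1760 and 1876 at 24 h, which gave a log2 fold change of 0.57 (standard error 0.0775, adjusted P = 4.39e-07). Without BLU6H replicate 1 it was 0.46, under the size cutoff. RAB38, its close relative with the same role, had a log2 fold change of -0.12 (adjusted P = 0.194).

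RAB9B, of late endosome to Golgi transport, rose from 103 and 110 to 167 and 173 normalized counts, 0.68 on the log2 scale (standard error 0.146, adjusted P = 2.29e-04). Its more abundant paralog RAB9A had 1655 and 1734 at 6 h and 1693 and 1771 at 24 h, which overlap, and a log2 fold change of 0.03 that turned to -0.012 with library size alone. RAB7L1, the older symbol of RAB29, a RAB of the Golgi and lysosome, had 4485 and 4295 normalized counts at 6 h and 6214 and 5826 at 24 h. The change of 0.46 on the log2 scale (adjusted P = 3.95e-06) was under the size cutoff and passed it without BLU24H replicate 2. RAB7A, which drives fusion of late endosomes with lysosomes, had the highest mean normalized count of the family, with 8859 and 8173 at 6 h and 10947 and 9837 at 24 h. It was higher by a log2 fold change of 0.29 (adjusted P = 0.00217). Summed over the 6 genes, normalized counts were 17109 and 16594 at 6 h and 21637 and 20318 at 24 h, with no overlap between the times. The sums of the early endosome, recycling and exocytosis, and regulated secretion genes did not overlap either, while those of the ER and Golgi genes did.

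Among the genes of regulated secretion, RAB27B, which docks secretory granules at the plasma membrane, was the single one of 6 to pass the cutoffs. This is 16.7%, against 35.1% of all genes tested. RAB27B (ENSG00000041353, chr18:52385091-52562747 of hg19) had 469 and 489 normalized counts at 6 h and 1013 and 987 at 24 h. It rose 2.09-fold from its 6 h mean of 479 ± 14.7 (SD, n = 2, with an SD of 18.7 at 24 h), or by 1.06 on the log2 scale (standard error 0.0846, adjusted P = 2.01e-11), and fits that each lacked 1 library gave 1.03 to 1.09. RAB27A, best known for melanosome and granule docking, had 1092 and 1001 normalized counts at 6 h and 998 and 939 at 24 h (log2 fold change -0.11, adjusted P = 0.224). RAB26, a RAB of secretory granules, was higher by 0.40 on the log2 scale (adjusted P = 0.00160). The abundant exocytosis gene RAB3B had a log2 fold change of 0.05 (adjusted P = 0.528), with overlapping libraries.

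Each gene was assigned to a single route for this report, and the assignment is loose for some. The 17 tested genes placed under recycling and exocytosis include the cilium-linked RAB23 and RAB28 and the RAB40 genes. They moved in both directions, with 2 rising and 3 falling, while 4 were higher and 8 lower when only an adjusted P under 0.05 was asked. The shares were 29.4% and 70.6%, against 35.1% and 65.6% of all genes. RAB23, a negative regulator of Hedgehog signalling that acts at cilia, had 464 and 421 normalized counts at 6 h and 256 and 244 at 24 h, which gave a log2 fold change of -0.82 (standard error 0.105, adjusted P = 1.51e-07). RAB28, another cilium-linked RAB, had 541 and 517 at 6 h and 348 and 346 at 24 h, which gave a log2 fold change of -0.61 (standard error 0.0953). RAB4B, of fast recycling from early endosomes, fell from 154 and 193 to 105 and 114. Its log2 fold change was -0.67 (standard error 0.152, adjusted P = 3.74e-04), but P was 0.0134 without BLU6H replicate 2, above the cutoff. Both RAB23 and RAB28 stayed past the cutoffs with each library left out.

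The abundant genes of this route stayed under the size cutoff and differed in direction. RAB11A, the main RAB of recycling endosomes, had 7303 and 7283 normalized counts at 6 h and 5953 and 5915 at 24 h, lower by 0.30 on the log2 scale (standard error 0.0712, adjusted P = 6.78e-04). RAB14, RAB8A, RAB8B and RAB12 were lower by 0.37, 0.26, 0.25 and 0.17 on the log2 scale, each with an adjusted P under 0.05. RAB11B and RAB13 were higher by 0.29 and 0.20, with adjusted P of 7.98e-04 and 0.0162. RAB10, RAB4A and RAB35 had log2 fold changes of -0.00076, 0.05 and 0.10, none with an adjusted P under 0.05.

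RAB40 proteins carry a SOCS box that recruits a ubiquitin ligase. RAB40B had 175 and 192 normalized counts at 6 h and 320 and 377 at 24 h, which gave a log2 fold change of 0.92 (standard error 0.121, adjusted P = 2.07e-07). RAB40C, with 754 and 783 at 6 h and 816 and 873 at 24 h, had a log2 fold change of 0.14 (adjusted P = 0.147). RAB40A had the largest log2 fold change of the family, 1.56 (standard error 0.429, adjusted P = 0.00252), but rests on raw counts of 6 and 9 at 6 h and 28 and 18 at 24 h. The unadjusted P missed the cutoff with DESeq2 (log2 fold change 1.58), without BLU24H replicate 1 (1.20) and without BLU6H replicate 1 (1.38). It was not tested where at least 10 counts were required of each library.

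Of 15 ER and Golgi genes tested, 2 rose and 1 fell, or 20.0%, against 35.1% of all genes tested. RAB2B, of Golgi transport, had 612 and 554 normalized counts at 6 h and 372 and 314 at 24 h, which gave a log2 fold change of -0.76 (standard error 0.101, adjusted P = 2.59e-07). Its far more abundant paralog RAB2A, with 8938 and 8302 at 6 h and 7802 and 7908 at 24 h, had a log2 fold change of -0.13 (adjusted P = 0.113). RAB36, a relative of the Golgi protein RAB34, had 215 and 256 at 6 h and 352 and 332 at 24 h, which gave a log2 fold change of 0.53 (standard error 0.115, adjusted P = 2.20e-04). It fell short of the size cutoff with library size alone (0.49), without BLU24H replicate 1 (0.50) and without BLU6H replicate 1 (0.41).

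RAB42, a little-studied RAB placed in this group, had 500 and 511 normalized counts at 6 h and 892 and 877 at 24 h, which gave a log2 fold change of 0.81 (standard error 0.0848, adjusted P = 4.42e-09). The whole of RAB42 lies within the position of TAF12, a subunit of the transcription factor TFIID, which had a log2 fold change of -0.55. The methods of the study name a stranded library kit. Whether strand was used in counting is not stated, so reads of the 2 genes may have been assigned to either. RAB1B was higher by 0.23 and RAB6B by 0.20 on the log2 scale, with adjusted P of 0.00535 and 0.0376. RAB1A, RAB6A, RAB18 and RAB34 had log2 fold changes of -0.00057, -0.0093, 0.03 and 0.05.

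**Figure D3:**
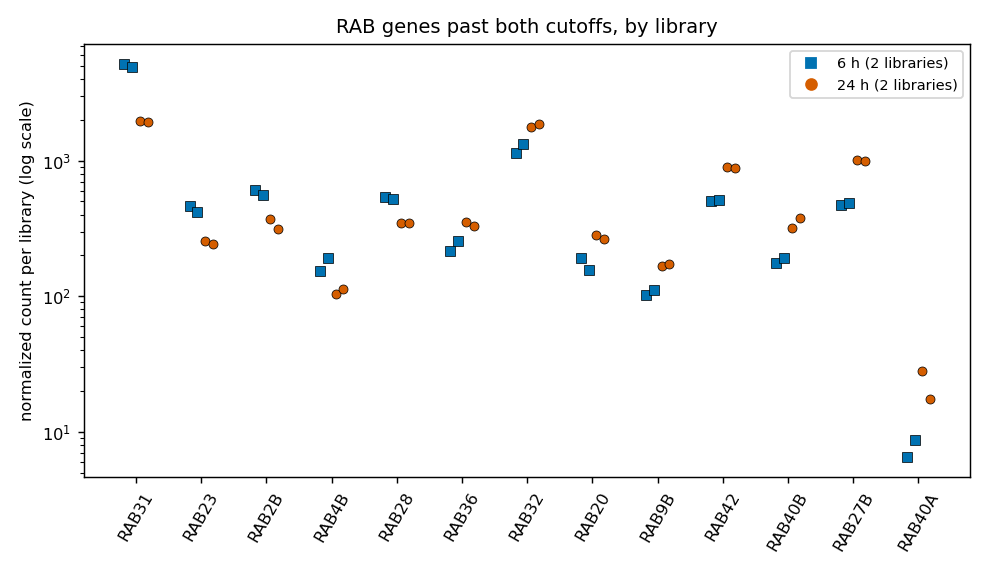
Normalized count (y axis, log scale) in each library for the 13 RAB genes past both cutoffs, ordered by log2 fold change from RAB31 to RAB40A, with squares for the 2 libraries at 6 h and circles for the 2 at 24 h. The squares and circles of a gene do not overlap in any of the 13.

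Because paralogs share a role, their balance was read within each library as the log2 ratio of raw counts, in which library scaling cancels. The ratio of counts also holds the ratio of transcript lengths, so only its difference between the times is described. Among 11 numbered RABs with at least 2 lettered genes tested there were 19 pairs, and the libraries of the 2 times overlapped in 2. They overlapped in 2342 of the 12876 single genes, which is an unlike measure, and ratios of other gene pairs were not computed. A lack of overlap need not mean a clear shift. RAB40B over RAB40A shifted by -0.64, with a gap of up to 0.91 between the 2 libraries of a time. Several pairs share a gene, and the sign of a ratio follows from which gene is set on top. With 2 libraries against 2, a two-sided exact permutation test cannot go below 0.333, and none was used. RAB27B over RAB27A moved furthest upward, from -1.22 and -1.03 at 6 h to 0.02 and 0.07 at 24 h. RAB9B over RAB9A went from -4.01 and -3.97 to -3.34 and -3.35.

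RAB11B over RAB11A went from -1.42 and -1.43 to -0.83 and -0.85, although neither gene alone passed the size cutoff. The gap between the 2 libraries of a time was at most 0.0225 for this pair, against a shift of 0.58. RAB5C over RAB5A went from -0.14 and -0.22 to 0.17 and 0.26. In the other direction, RAB4B over RAB4A went from -3.52 and -3.30 to -4.12 and -4.11, and RAB2B over RAB2A from -3.87 and -3.91 to -4.39 and -4.65. RAB40C over RAB40B went from 2.11 and 2.03 to 1.35 and 1.21. RAB8B over RAB8A, with -0.11 and -0.18 at 6 h and -0.17 and -0.088 at 24 h, overlapped, as both genes were lower by a like amount.

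**Figure D4:**
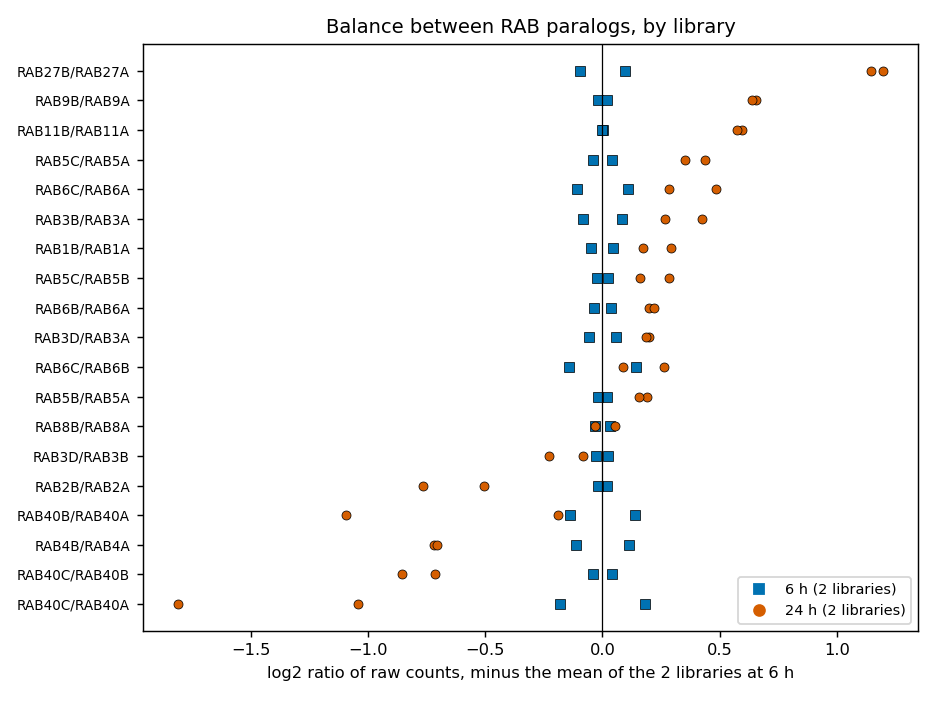
Log2 ratio of raw counts for 19 pairs of RAB paralogs in each library, given relative to the mean of the 2 libraries at 6 h, with squares for 6 h and circles for 24 h. The pairs run from RAB40C/RAB40A at the bottom to RAB27B/RAB27A at the top, whose mean at 24 h lies 1.17 above that at 6 h.

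Levels between genes were compared per kilobase of the longest protein-coding transcript in GENCODE v44, where each of the 61 Ensembl identifiers was found. The transcripts TPC1 cells use may be shorter, so the order is approximate. RAB13, of tight junction trafficking, stood highest with a mean of 4627 normalized counts per kilobase over the 4 libraries, followed by RAB7A with 3167, RAB1A with 2666 and RAB1B with 2621. RAB34 had 2407, RAB2A 2205, RAB11B 1896 and RAB7L1 1574. RAB1A and RAB1B, next to each other in that order, changed places between the times by this measure. This depends on the lengths used, as in counts RAB1A stood above RAB1B in every library. At 6 h RAB1A had 2735 and 2598 normalized counts per kilobase and RAB1B 2394 and 2426, and at 24 h RAB1A had 2723 and 2608 and RAB1B 2775 and 2889. The 13 called genes lay between 4.84 per kilobase in RAB40A and 1430 in RAB32.

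The 9 genes not tested were near or at the limit of detection. RAB3C had 0 counts in all 4 libraries. RAB17, RAB25, RAB44 and RAB39A had at most 3 counts in any library. RAB25, the epithelial relative of RAB11, had 2 and 2 at 6 h and 0 and 0 at 24 h. RAB41 had 9 and 10 at 6 h and 8 and 6 at 24 h, RAB33A 9 and 6 against 4 and 3, and RAB37 4 and 6 against 0 and 6. RAB19, a Golgi RAB, had 2 and 0 counts at 6 h and 10 and 7 at 24 h and passed the cutoffs in edgeR with no filter and without BLU6H replicate 1, but not with DESeq2.

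Some counts may include reads of other genes. Of the 61 genes, 22 share positions with some other listed gene, among them 4 of the 13 called, RAB2B, RAB4B, RAB23 and RAB42. RAB24, a RAB of autophagy with a log2 fold change of 0.14, shares 57.1% of the 50-base stretches of its longest transcript with MXD3, whose log2 fold change was -3.77. RAB4B shares 66.0% with the readthrough transcript RAB4B-EGLN2, RAB6A 15.3% with its intronless copy RAB6C, and RAB40A 15.9% with RAB40AL. RAB43 shares 88.2% with ISY1-RAB43, RAB13 38.3% with ENSG00000285641 and RAB5C 36.2% with ENSG00000267261. The part of such reads in the counts was not tested.

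The regulators of the RAB cycle were read as 4 lists with 137 genes, of which 129 were tested. Over the 4 lists, 27 genes rose and 16 fell, or 33.3%, near the share of all genes given above. Among 36 exchange factors, 11 rose and 6 fell, or 47.2%, against 35.1% of all genes, with a median log2 fold change of 0.11. At an adjusted P under 0.05 there were 16 higher and 8 lower, or 66.7%, close to the 65.6% of all genes. Among those with a mean of at least 50 normalized counts, the highest were DENND2A, an exchange factor for RAB9, at a log2 fold change of 2.19 (standard error 0.0914), ALS2CL, a relative of the RAB5 exchange factor alsin, with 2.13, RAB3IL1, which acts on RAB3A and RAB8, with 1.98, and DENND6B with 1.11. DENND2A had 348 and 300.3 normalized counts at 6 h and 1406 and 1540 at 24 h. RAB9B rose as well, as given above, whereas RAB9A did not pass the cutoffs, and the relation was not tested.

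The exchange factors that fell most were RAB3IP (Rabin8), which activates RAB8 in cilium formation, with a log2 fold change of -0.79, CCZ1, which with MON1 activates RAB7, with -0.71, GAPVD1, which acts on RAB5 and RAB31, with -0.69, and DENND4A, which acts on RAB10, with -0.67. GAPVD1 had 2456 and 2316 normalized counts at 6 h and 1511 and 1449 at 24 h. Set beside the RABs they act on, GAPVD1 and RAB3IP were lower as RAB31, RAB8A and RAB8B were. The RAB5 genes, also targets of GAPVD1, were not alike, with log2 fold changes of -0.14 for RAB5A, 0.03 for RAB5B and 0.25 for RAB5C. Of these only RAB5C had an adjusted P under 0.05. RAB3IL1 rose while RAB8A and RAB8B were lower, and RAB3A, at -0.29, did not reach an adjusted P under 0.05. CCZ1 fell while RAB7A was higher, and DENND4A fell while RAB10 had a log2 fold change of -0.00076. The position of DENND4A overlaps that of RAB11A by 66240 bases. The relation within these pairs was not tested.

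Of 36 GTPase-activating proteins, 7 rose and 3 fell, or 27.8%, against 35.1% of all genes, with a median log2 fold change of 0.13. Without BLU6H replicate 2 the number that fell was 5. USP6NL, known to act on RAB5, fell by 1.10 on the log2 scale (standard error 0.0721), from 2486 and 2388 to 1175 and 1102 normalized counts. TBC1D7, a subunit of the TSC complex, fell by 0.84, and TBC1D4, which acts on RAB10 in glucose transporter traffic, by 0.68. TBC1D8, TBC1D2B, TBC1D9B and TBC1D16 rose, with log2 fold changes of 1.14, 0.78, 0.73 and 0.62, the last falling to 0.49 without BLU24H replicate 2.

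Of the 14 genes listed for carrying RABs or for prenylation, 0 rose and 3 fell, or 21.4%, against 35.1% of all genes (17.7% lower), with a median log2 fold change of -0.16. At an adjusted P under 0.05, 0 were higher and 6 lower, or 42.9%, against 65.6% of all genes. RABGGTB, the catalytic subunit of the geranylgeranyl transferase for RABs, had 2285 and 2478 normalized counts at 6 h and 1666 and 1631 at 24 h (log2 fold change -0.53). ARL6IP5, a PRA1 family protein, had -0.58 and ICMT, which methylates prenylated proteins, -0.50. RABGGTB (-0.48 without BLU6H replicate 2) and ICMT (-0.47 with upper quartile scaling, -0.48 without BLU24H replicate 1 and -0.49 without BLU6H replicate 2) lay close to the size cutoff. Only 1 of the 3 calls in this list was left without BLU6H replicate 2.

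Among 43 effectors tested, 9 rose and 4 fell, or 30.2%, against 35.1% of all genes. At an adjusted P under 0.05 there were 14 higher and 15 lower, or 67.4%, against 65.6% of all genes. RILPL1, of cilia and lysosomes, RAB11FIP5, an effector of RAB11, OSBPL1A, a cholesterol sensor that binds RAB7, and RUFY1, which binds RAB4 and RAB14, rose with log2 fold changes of 1.16, 1.13, 1.10 and 1.01. MICALL2, the RAB13 effector of cell junctions, fell by 1.41 (standard error 0.0960), from 770 and 856 to 292 and 322 normalized counts. SYTL4 and SYTL2, which bind RAB27 on secretory granules, fell by 1.07 and 0.68, while RAB27B rose. SYTL2 had 6150 and 6548 normalized counts at 6 h and 3987 and 3964 at 24 h. RILPL2 had a log2 fold change of -0.53, which was -0.44 without BLU24H replicate 2 and -0.46 without BLU6H replicate 1.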

How the data were processed

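TPC1 cells under BLU6864 for 6 h or 24 h were sequenced, 2 libraries at each time. The authors aligned the reads with STAR (version 2.3 and hg19 in the submitters' processing notes, while the methods name another version) and deposited raw counts per gene that carry no normalization. The counting program and its strand setting are not given in the sources used here. The authors also deposited a signal per gene, the count divided by one size factor per library, which was not tested here, and their DESeq2 comparison (mean, fold change, standard error, statistic and P), which was not used. Counts and the signal were the only columns per sample.

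Testing used edgeR 4.0.16 (R 4.3.3) on the raw counts. After filterByExpr there remained 12876 of 20372 genes with 99.97% of the counts. The quasi-likelihood test followed TMM scaling, with time as the single factor, and P was adjusted over all genes tested (Benjamini-Hochberg). The standard error is the size of the log2 fold change over the square root of F. For normalized counts, each raw count was divided by the effective (TMM) size of its library over the mean of the 4. The procedure was tested on simulated data. Every member past the cutoffs in either direction was named, with its lettered paralogs and the most abundant member of each route. From each list of regulators, up to 4 genes in each direction past the cutoffs with a mean of at least 50 normalized counts were named, the highest and the lowest by log2 fold change. Other RAB genes were named after their values were seen. Members and lists were chosen with earlier results of these data known. Alternatives were DESeq2 1.42.0, scaling by library size alone or by the upper quartile, no filter, a minimum of 10 counts in each library, a block for the replicate number, and each library left out in turn. Plots were drawn with matplotlib 3.10.9.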

Additional observations from a re-analysis of the deposited data

How the results depend on the processing

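Each of the 12 numbers of genes that rose or fell, over the RAB genes and the 4 lists, stayed within 1.5 times under each alternative, except 2 that moved without BLU6H replicate 2. With 1 library absent from the fit, the number of GTPase-activating proteins that fell ranged from 3 to 5 and that of carriers and prenylation genes that fell from 1 to 3. The RAB genes that rose ranged from 6 to 9 there and those that fell from 4 to 5. In these fits the lone library of a time is assumed to vary like the others. DESeq2 gave 7 rising and 5 falling RAB genes, and 12 of the 13 calls were shared. RAB5B turned from 0.03 to -0.014 and RAB9A from 0.03 to -0.012 with library size alone, a scaling that moved the median of all genes to -0.040. With each library left out, RAB5B ranged from -0.022 to 0.076 and RAB9A from -0.0023 to 0.071. Of 509 other values of named genes under the alternatives, 487 kept their direction and their side of the cutoffs and 18 fell short of them.

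The replicate numbers 1 and 2 occur at both times, but nothing states what they mark, and the deviations of same-numbered libraries had a correlation across genes of 0.0757. With the replicate number as a block, 8 RAB genes rose and 5 fell, and the number lower at an adjusted P under 0.05 went from 11 to 12. No named gene changed its call under the block. Depth limits the 9 genes not tested and RAB40A.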

Other observations

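RAB-like genes that the symbol rule leaves out were looked up after the values of the RAB genes were seen. RASEF, an atypical long RAB also known as RAB45, had 68.0 and 50.8 normalized counts at 6 h and 176 and 152 at 24 h, which gave a log2 fold change of 1.47 (standard error 0.176, adjusted P = 4.62e-08 in edgeR's quasi-likelihood test). Fits that each lacked 1 library gave 1.26 to 1.69. RABL2B, which acts in ciliary transport, had 273 and 237 at 6 h and 380 and 387 at 24 h (log2 fold change 0.59, 0.49 without BLU6H replicate 2). Its near-identical copy RABL2A had a log2 fold change of 0.68, and reads of the 2 genes may have been split between them. RABL3 was lower by 0.32, and RABL6 and EFCAB4B, a calcium-binding protein with a RAB domain, were higher by 0.19 and 0.44, each with an adjusted P under 0.05 but under the size cutoff. RABL5, IFT27, a RAB-like subunit of the intraflagellar transport complex, and RAN, the GTPase of nuclear transport, had log2 fold changes of -0.16, 0.08 and -0.06, none with an adjusted P under 0.05. RAB40AL had 1 count in 1 library and 0 in the other 3.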
